A study of Mus musculus with 6 samples.

Results

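The 6 genes described here make creatine or pass phosphate to and from it. They are *Gatm* and *Gamt*, the enzymes of creatine synthesis, and *Ckb*, *Ckm*, *Ckmt1* and *Ckmt2*, the creatine kinases. They were taken by gene name from the non-control spots of the scanner files. All 6 were found among the 37074 gene names on the array, with 9 probes between them. They were chosen by their measured difference in log2 signal between the groups of these arrays, so their own differences are given as a description and without a test.

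The arrays hold RNA of osteoclasts grown from bone marrow of 3 *Ano1fl/fl* mice and 3 *Ctsk-Cre;Ano1fl/fl* littermates. In both groups loxP sites flank *Ano1*, the gene of a calcium-activated chloride channel, and in the second group a Cre transgene driven by cathepsin K sequences is meant to remove it in cells of the osteoclast lineage. Both groups were cultured with RANKL, the osteoclast-forming cytokine, over 5 days. The study's general protocol uses mice aged 6 to 8 weeks, with 50 ng/ml RANKL and 30 ng/ml M-CSF. RNA was labelled with Cy3 and read on 1-colour Agilent arrays with 60-base probes, all on 1 slide and in 1 scan. No spot was saturated, and 33480 to 34951 spots per array were well above background. The groups are called control arrays (labelled *Ano1fl/fl*) and cKO arrays (labelled *Ctsk-Cre;Ano1fl/fl*).

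The labels could not be checked on the deleted gene. The *Ano1* probe stayed in the background on all 6 arrays, with processed signals of 3.22 to 3.91, so every direction follows the labels. Osteoclast markers were higher on the arrays labelled cKO: by the brightest probe of each gene, all 10 of 10 lay higher without overlap, and 8 of the 10 passed the test described with the pathway genes. Of their 15 probes above background on all 6 arrays, 14 lay higher without overlap and 1 lower: *Nfatc1*, a transcription factor of osteoclast formation, differed by 0.53 at its brighter probe and by -0.53 at the other. The direction by the brightest probes is the reverse of the one that the study gives for osteoclast formation in cultures of the same genotype. By quantitative PCR the study also reports lower mRNA of osteoclast markers, *Ctsk* among them, in such cultures. The same markers, *Nfatc1*, *Acp5*, *Ctsk* and *Mmp9*, lay higher on the arrays labelled cKO at their brightest probes, by 0.53, 0.84, 3.17 and 4.36. Why the directions differ was not tested. The defining markers *Acp5* and *Ctsk* were well above background on all 6 arrays. In bulk RNA, fewer cells of a type and less RNA per cell cannot be told apart.

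Creatine stores energy-rich phosphate. Gatm joins arginine and glycine into guanidinoacetate in mitochondria, Gamt methylates that product to creatine, and the transporter Slc6a8 takes creatine up from outside. Creatine kinases then move phosphate between ATP and creatine. Ckmt1, the ubiquitous form, and Ckmt2, the sarcomeric form, work in the mitochondrial intermembrane space, whereas Ckb, the brain form, and Ckm, the muscle form, work in the cytosol and return the phosphate to ADP where ATP is used. In osteoclasts, *Ckb* is known to be induced during differentiation, and the proton pump that acidifies the resorption pit is a large user of ATP.

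The probes decide which transcript each value stands for. *Ckb* and *Ckm* are related in sequence, so the probe of *Ckb* that starts at transcript base 755 and the *Ckm* probe that starts at base 707 are printed against each other. At their best ungapped alignment over at least 20 bases, 45 of 56 bases were identical (80.4%), in runs of at most 8 bases. No other pair of member probes was identical at more than 45.6% of its aligned bases. Both are given 5′ to 3′, with the bases shared at that alignment in capitals.
Ckb probe at 755: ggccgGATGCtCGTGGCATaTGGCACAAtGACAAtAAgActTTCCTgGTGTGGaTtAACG
Ckm probe at 707: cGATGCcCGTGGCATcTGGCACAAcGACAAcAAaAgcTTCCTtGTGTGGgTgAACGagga
In the mm9 coordinates of the array files the *Ckb* probe lies at chr12:112908459-112909105 on the minus strand and the *Ckm* probe at chr7:20002222-20004829 on the plus strand. These intervals are 647 and 2608 bases long, longer than the probes themselves. No annotation of mm9 was used here, so exons and untranslated regions were not assigned to probe positions.

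The 2 probes of *Ckmt1* are adjacent in the transcript, from bases 1474 and 1529, and overlap by 5 bases. The facing ends are printed because their values are far apart, with the 5 shared bases in capitals.
Ckmt1 probe at 1474, last 30 bases: ttctgcatatttaacagtggcccagTCTAC
Ckmt1 probe at 1529, first 30 bases: TCTACttgccctggacctgcctctctccct
They lie at chr2:121189359-121189418 and chr2:121189414-121189473 of mm9, both on the plus strand. The *Ckmt2* probe, from transcript base 1176, lies at chr13:91993242-91995390 on the minus strand and is given whole because it never left background.
Ckmt2 probe at 1176: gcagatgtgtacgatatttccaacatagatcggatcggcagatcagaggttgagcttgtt

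Of the 6 genes, 4 gave a signal. *Gatm*, *Gamt*, *Ckb* and *Ckmt1* cleared background on every array of 1 group or of both, and *Ckm* and *Ckmt2* did so on no array. *Ckb* and *Ckmt1* were higher on the cKO arrays, both by more than 2-fold. *Gatm* and *Gamt* were lower there, *Gatm* by more than 2-fold. In each of the 4 the cKO arrays and the control arrays did not overlap. Over all 20645 genes tested, 28.6% lay higher on the cKO arrays without overlap and 35.4% lay lower. With more than 2-fold and an adjusted p under 0.05, the shares were 9.88% higher and 7.19% lower. Nothing is read from the members' counts against these shares, since the contrast chose the members.

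**Figure D1:**
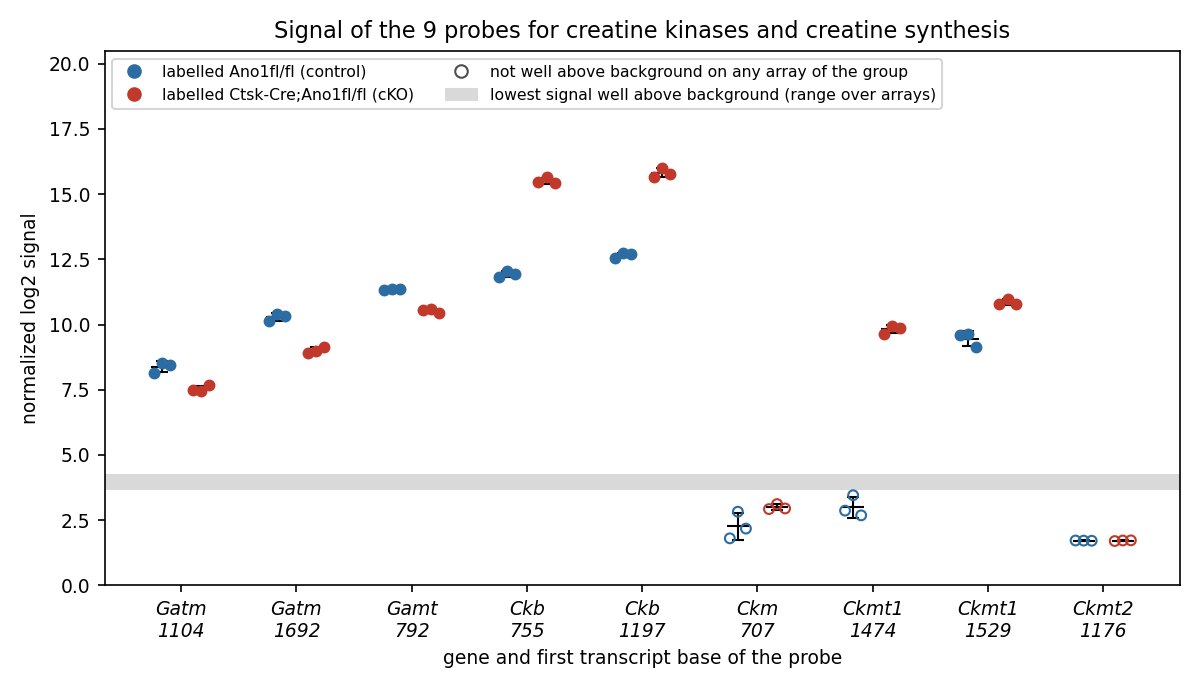
Normalized log2 signal of the 9 probes on each array, by gene and first transcript base of the probe, with 3 control arrays (blue) and 3 cKO arrays (red); black marks give the mean and SD, open points mark groups in which no array was well above background, and the grey band spans the lowest signal well above background on the 6 arrays. Both *Ckb* probes and both *Ckmt1* probes were higher on the cKO arrays, *Gatm* and *Gamt* were lower there, and *Ckm* and *Ckmt2* lay under the band on every array.

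Creatine synthesis begins with *Gatm*, whose 2 probes both read lower on the cKO arrays. The probe from base 1692 (mm9 chr2:122420814-122420873, minus strand) gave normalized log2 signals of 10.13, 10.41 and 10.33 on the control arrays and 8.93, 8.98 and 9.15 on the cKO arrays. All 3 cKO arrays were below all 3 control arrays, and the difference was -1.27 (standard error 0.10), or 2.41-fold lower. The probe from base 1104 (chr2:122423164-122423223) gave 8.13, 8.54 and 8.46 against 7.48, 7.46 and 7.66. It was lower by less, with a difference of -0.84 (standard error 0.13), or 1.79-fold. Of the genes tested, 4.61% had a larger fall than *Gatm* at its brighter probe, which stands for the gene.

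*Gamt*, the second enzyme, read within a narrow spread in each group. Its probe (transcript base 792, mm9 chr10:79720991-79721047, minus strand) gave 11.31, 11.36 and 11.38 on the control arrays and 10.57, 10.60 and 10.44 on the cKO arrays. The groups were 0.82 apart on the log2 scale (difference -0.82, standard error 0.05), 1.76-fold lower on the cKO arrays, while the SD within a group was 0.03 and 0.09. This stays short of 2-fold, and 10.6% of the genes tested had a larger fall.

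*Ckb*, the cytosolic brain form, had the largest difference of the members measured in both groups. Its probe from base 1197 (mm9 chr12:112907787-112907846, minus strand), the brighter of the pair, gave 12.56, 12.73 and 12.71 on the control arrays and 15.67, 16.00 and 15.77 on the cKO arrays. Every cKO array was far above every control array. The difference was 3.15 (standard error 0.10), or 8.86-fold higher. At the probe from base 755, printed above, the control arrays gave 11.82, 12.04 and 11.94 and the cKO arrays 15.48, 15.65 and 15.43, a difference of 3.59 (standard error 0.09), or 12.03-fold. Before normalization the same probe had processed signals of 3479.7 to 4824 on the control arrays and 41522 to 43835 on the cKO arrays. Of the genes tested, 2.55% had a larger rise than *Ckb*.

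*Ckm* stayed in the background on the same arrays. Its processed signal was 3.30, 7.22 and 4.97 on the control arrays and 8.56, 7.70 and 7.21 on the cKO arrays. The dimmest spot marked well above background read 15.01 to 18.4, depending on the array. Its normalized values of 1.80 to 2.82 and 2.92 to 3.12 have only an upper bound, and no fold is given. The aligned *Ckb* probe, 80.4% identical over 56 bases, read 41522 to 43835 on the cKO arrays on which the *Ckm* probe read 7.21 to 8.56. *Ckmt2*, the sarcomeric mitochondrial form, read 3.07 to 3.70 on the control arrays and 3.22 to 3.28 on the cKO arrays, also under the background limit throughout.

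*Ckmt1*, the ubiquitous mitochondrial kinase, was higher on the cKO arrays at both probes, by very different amounts. The brighter probe, from base 1529, gave 9.60, 9.66 and 9.13 on the control arrays and 10.79, 10.99 and 10.80 on the cKO arrays. The cKO arrays lay above the control arrays with a difference of 1.40 (standard error 0.16), or 2.64-fold, and 7.69% of the genes tested had a larger rise. The adjacent probe from base 1474 gave 9.65, 9.94 and 9.86 on the cKO arrays. On the control arrays it read 2.86, 3.45 and 2.68 and was not well above background on any of them. With each control array set to the dimmest signal that cleared its background, the probe was at least 57.6-fold higher on the cKO arrays. That limit holds for the processed signal only, since the same difference was 13.6-fold with normexp, another background correction, and 23.1-fold with the series matrix, which holds spot medians without background subtraction.

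The 2 *Ckmt1* probes therefore stood in a different ratio in the groups. On the cKO arrays the probe from base 1474 differed from its neighbour by -1.04 ± 0.10 log2 units (SD, n = 3). On the control arrays only a limit can be given, a gap of -5.52, -5.82 and -5.14 or wider, with the dimmer probe set to the lowest signal above background on each array. This limit too holds for the processed signal only. In alternatives chosen after seeing the data, the mean gap was -3.41 on the control arrays and -0.98 on the cKO arrays with normexp, and -4.19 and -1.01 with the series matrix. The control values again include a probe at background and are no measured sizes. For *Ckb* the probe from base 755 against the probe from base 1197 gave -0.74 ± 0.04 on the control arrays and -0.29 ± 0.09 on the cKO arrays (SD, n = 3). For *Gatm* the probe from base 1104 against the probe from base 1692 gave -1.92 ± 0.07 and -1.48 ± 0.04 (SD, n = 3). In all 3 genes the control and cKO arrays did not overlap in this gap. Why the probes of a gene differ was not tested.

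**Figure D2:**
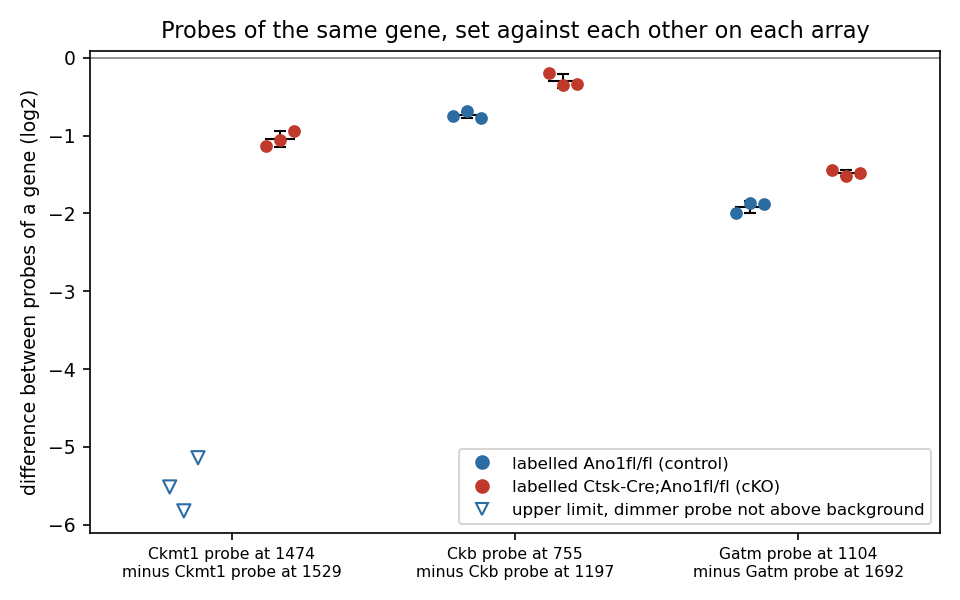
Log2 signal of the dimmer probe minus that of the brighter probe of the same gene on each array, for *Ckmt1*, *Ckb* and *Gatm*, with 3 control arrays (blue), 3 cKO arrays (red), and the mean and SD in black; open triangles are limits, drawn where the dimmer probe was not above background. In the processed signal the *Ckmt1* gap was -5.14 or wider on every control array, a limit that other background treatments narrow, and -1.04 on average on the cKO arrays, while the gaps of *Ckb* and *Gatm* moved from -0.74 to -0.29 and from -1.92 to -1.48.

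The promoters of the 2 kinases that were higher are shown because both genes were higher on the same arrays. The windows are the 250 bases before the annotated start, from RefSeq on GRCm38.p6, a later build than that of the array files, and all 6 members were matched in 7 windows, 2 of them of *Ckmt1*. The motifs searched on both strands were the TATA box as TATAAA, the CCAAT box by those letters, the GC box as GGGCGG, the AP-1 site as TGANTCA, the E box as CANNTG and the core that ERR factors bind as AAGGTCA. None of these motifs lies inside another. Matches other than the E box are in capitals.
Ckb, chr12:111672339-111672588, minus strand: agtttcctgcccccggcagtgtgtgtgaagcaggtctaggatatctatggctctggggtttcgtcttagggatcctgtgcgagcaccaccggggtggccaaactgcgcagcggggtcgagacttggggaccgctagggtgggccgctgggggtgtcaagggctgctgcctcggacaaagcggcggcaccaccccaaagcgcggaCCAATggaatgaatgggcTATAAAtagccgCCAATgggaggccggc
Ckmt1, first start, chr2:121357526-121357775, plus strand: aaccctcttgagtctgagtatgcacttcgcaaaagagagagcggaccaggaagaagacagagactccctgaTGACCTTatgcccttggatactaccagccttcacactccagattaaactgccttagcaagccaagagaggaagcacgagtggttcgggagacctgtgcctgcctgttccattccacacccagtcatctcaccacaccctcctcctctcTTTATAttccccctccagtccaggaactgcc
In *Ckb*, TATAAA lay 23 to 28 bases before the start, between a CCAAT match at 42 to 46 and another at 12 to 16. In *Ckmt1*, TATAAA lay on the opposite strand 26 to 31 bases before its first start, and AAGGTCA on the opposite strand at 173 to 179. The window of its second start held CCAAT on the opposite strand.

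Of 32851 RefSeq windows of this length, 12.4% held the TATA box, 33.8% the CCAAT box, 32.7% the GC box, 6.75% the AP-1 site, 66.2% the E box and 4.08% the ERR core. The *Gatm* window held 2 CCAAT matches and 1 E box, and the *Gamt* window held 3 GC box matches and no other. The *Ckm* window held 1 E box. The *Ckmt2* window held 2 CCAAT, 1 GC box and 4 E box matches. No window of the 6 genes held the AP-1 letters. A match is a run of letters and not a measured binding site.

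The genes around the members were followed in 4 lists, of creatine transport and substrates, other phosphotransfer kinases, mitochondrial partners, and muscle and mitochondrial regulators. These genes were tested, with p adjusted over all 20645 genes, and a gene is called where limma's adjusted p was under 0.05 and the change more than 2-fold. Of 70 listed genes 58 were tested, of which 12 were called higher, 2 were called lower and 44 did not pass. The median log2 difference of the 58 was 0.25, against -0.06 over all genes tested. The calls were 12 of 58 higher and 2 of 58 lower, where all genes gave 9.88% and 7.19%. As the lists were chosen with earlier results of these data known, nothing is read from these calls against those shares. Of these calls, 3 of the 12 higher and 1 of the 2 lower are of genes that one group did not show above background (*Slc7a2*, *Ak7*, *Ak5* and *Amt*). Their calls rest on signals at background, and 9 higher and 1 lower calls were measured in both groups.

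In the list of creatine transport and substrates, 6 of 20 tested genes were called higher and 2 lower, with a median log2 difference of -0.02. *Slc6a8*, the creatine transporter, gave 12.41, 12.59 and 12.60 on the control arrays and 13.73, 13.83 and 13.67 on the cKO arrays. It rose by 1.21 (standard error 0.09, limma adjusted p = 0.000136), or 2.32-fold, and its second probe differed by 1.05. The transporter was thus higher on the arrays on which both synthesis enzymes read lower. *Slc16a12*, another creatine carrier, was not above background on any array.

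Other genes of that list that rose carry or handle the amino acids from which creatine is made. *Slc6a9*, a glycine transporter, rose by 2.43 (standard error 0.20, limma adjusted p = 0.000227), from 9.62 to 10.25 on the control arrays to 12.14 to 12.53 on the cKO arrays. *Slc7a1*, a cationic amino acid transporter that takes up arginine, rose by 1.82 (standard error 0.17, limma adjusted p = 0.000413). *Slc7a2*, of the same family, was not well above background on any control array and was at least 6.67-fold higher on the cKO arrays (limma adjusted p = 0.000835), against 2.38-fold with normexp and 3.52-fold with the series matrix. *Shmt2*, a mitochondrial serine hydroxymethyltransferase, also rose, by 1.12; it was named after its values were seen.

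Of the genes called lower in the list, *Amt*, of the glycine cleavage system, was not well above background on any cKO array and was at least 1.93-fold lower there (limma adjusted p = 0.00323). This limit is short of 2-fold, and the call was lost with normexp, the series matrix and the mean of the gene's probes.

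Among the other phosphotransfer kinases 4 of 24 tested genes were called higher and none lower, with a median of 0.18. At any fold, 10 of the 24 were higher and 2 lower at a limma adjusted p under 0.05, where all genes gave 23.4% and 29%. The 4 are adenylate kinases, which pass phosphate between adenine nucleotides. *Ak4*, of the mitochondrial matrix, rose by 1.97 (standard error 0.25, limma adjusted p = 0.00116), or 3.92-fold, from 9.39, 10.38 and 9.74 to 11.86, 11.87 and 11.69. *Ak7* and *Ak5* were not well above background on any control array and were at least 5.06-fold and at least 1.86-fold higher on the cKO arrays (limma adjusted p = 5.6e-05 and 8.9e-05). *Ak7* differed by 2.28-fold with normexp and 3.69-fold with the series matrix. The limit of *Ak5* is short of 2-fold, and its call was lost under both alternatives. A second probe of *Ak7* was below background on all 6 arrays. The fourth, *Ak1*, the main cytosolic form, differed by 1.55 and was named after its values were seen. No nucleoside diphosphate kinase, AMP deaminase or AMP-activated kinase subunit was called.

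The mitochondrial partners are the adenine nucleotide and phosphate carriers, the VDAC channels and *Ppif*, which encodes the peptidyl-prolyl isomerase cyclophilin D, and none of their 7 tested genes was called. By the brightest probes their differences were small and to 1 side, from 0.23 to 0.50 with a median of 0.31. A dimmer probe of *Slc25a4* differed by 0.70. Of the 7 genes, 6 lay higher on the cKO arrays without overlap, where all genes gave 28.6%. Those 6 had a limma adjusted p under 0.05 at less than 2-fold, where 23.4% of all genes were higher at any fold. The count therefore depends on the fold asked for.

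Of the regulators, 2 of 7 tested genes rose and none fell, with a median of 0.24. At any fold, 4 were higher and 0 lower at a limma adjusted p under 0.05, where all genes gave 23.4% and 29%. *Mef2b*, a MEF2 transcription factor, gave 5.87, 5.86 and 5.49 on the control arrays and 10.698, 9.76 and 11.03 on the cKO arrays. It rose by 4.76 (standard error 0.33, limma adjusted p = 0.000119), or 27.1-fold, against 13.0-fold with normexp and 17.1-fold with the series matrix. A second probe above background on all 6 arrays differed by 4.31, and another, not above background on any control array, was at least 10.03-fold higher. *Ppargc1b*, a coactivator of mitochondrial genes, rose by 1.12 (standard error 0.12, limma adjusted p = 0.000723). The myogenic factors *Myog*, *Myf5* and *Myf6* were below background on all 6 arrays, and *Myod1* on 5 of them.

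**Figure D3:**
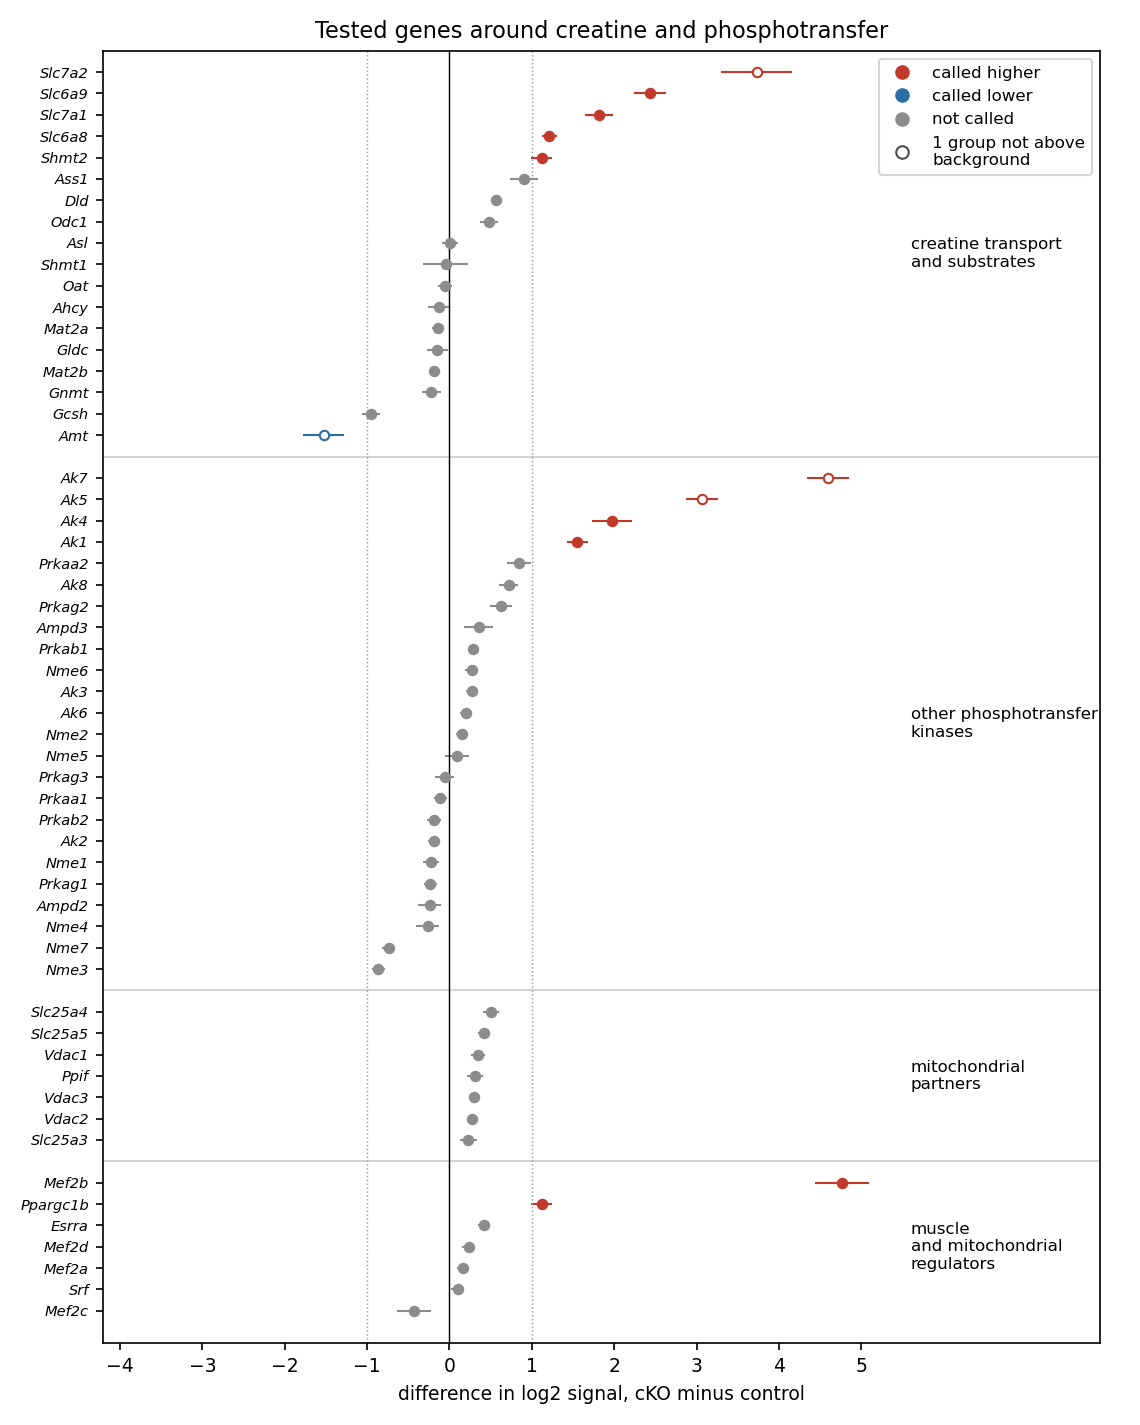
Difference in log2 signal between cKO and control arrays, with its standard error, for 56 of the 58 tested genes of the 4 lists; dotted lines mark 2-fold. The 11 genes drawn as called higher (red) include *Mef2b* at 4.76, *Slc6a9* at 2.43 and *Slc6a8* at 1.21, and *Amt* is drawn as called lower (blue); open points, *Amt* among them, mark genes that one group did not show above background, whose place is no measured size.

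Genes with a like profile were sought by the smallest root mean square distance between log2 profiles over the 6 arrays, each centred on its own mean. The search is given for genes well above background on all 6 arrays, a restriction chosen after the values were seen. The genes most like *Ckb* were *Atp6v0d2* (0.09), *Slc32a1* (0.11) and *Arap2* (0.11). *Atp6v0d2*, a subunit of the proton pump of osteoclasts, was also in the osteoclast list; it gave 11.08 ± 0.23 on the control arrays and 14.21 ± 0.17 on the cKO arrays (SD, n = 3). Nearest to *Ckmt1* were *Sh3rf1* (0.09), *Slc4a2* (0.11) and *Hoxa11os* (0.11), the second an anion exchanger. Nearest to *Gamt* were *Athl1*, *Atpif1* and *Wdr45b*, at 0.04 to 0.05, and nearest to *Gatm* were *Amer1*, *Ppih* and *Tfap4*, at 0.07 to 0.08. Without the restriction *Arhgef28* and *Mettl24* (*Ckb*), *Tmem200b* (*Ckmt1*) and *Pla2g4c* (*Gatm*) also came among the nearest 3, with at least 1 array of a group not above background. How many genes lie close differed by member. Within 0.2 of the profile there were 40 genes for *Ckb*, 100 for *Ckmt1*, 279 for *Gatm* and 1269 for *Gamt*. The distance mostly reflects a similar size of difference between the groups.

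Markers of several cell types moved with the groups. The log2 of the summed signal of the 10 osteoclast markers was 17.16 to 17.28 on the control arrays and 18.93 to 19.10 on the cKO arrays, and *Acp5* (0.84), *Ctsk* (3.17) and *Mmp9* (4.36) were its brightest. Of 16 tested stromal and osteoblast markers 12 were called higher, 1 of them not above background on any control array, and none lower, with sums of 11.82 to 12.22 and 15.96 to 16.69, led in signal by *Sparc* (4.82), *Col1a2* (5.39) and *Col6a1* (4.47), while *Bglap* was below background on 5 of 6 arrays. At any fold 2 of the 16 were lower at a limma adjusted p under 0.05, *Lepr* (-0.69) and *Runx2* (-0.46), named after their values were seen. Of 11 neutrophil and precursor markers 5 fell, with sums of 18.45 to 18.52 and 17.72 to 18.05; *S100a9* (0.20), *S100a8* (-0.60) and *Mpo* (-3.41) were the brightest. Of 11 macrophage markers 3 fell, with overlapping sums of 18.75 to 18.84 and 18.68 to 18.87, and *Csf1r* (-0.04), *Cd68* (0.20) and *Adgre1* (0.80) were not called. At any fold 1 higher and 8 lower of the neutrophil and precursor markers, and 1 higher and 6 lower of the macrophage markers, had a limma adjusted p under 0.05. Over all genes tested, the shares at any fold were 23.4% higher and 29% lower. The part of these cell types in the values of *Ckb*, *Ckmt1*, *Gatm* and *Gamt* was not tested.

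Muscle is the usual source of *Ckm* and *Ckmt2*. Of 20 skeletal muscle markers 10 did not pass the filter, *Myh1*, *Myh2*, *Myh8*, *Mb*, *Cav3* and *Actn3* being below background on all 6 arrays. Of the 10 tested, 2 were called higher, neither of them above background on any control array, and 1 fell, with sums of 11.36 to 11.82 on the control arrays and 10.76 to 10.99 on the cKO arrays; *Tnnt1* (-0.44), *Tnni2* (-2.14) and *Mylpf* (0.15) were the brightest. At any fold 2 were higher and 2 lower at a limma adjusted p under 0.05, where all genes gave 23.4% and 29%. Of 7 tested smooth muscle markers of 9, 2 were called higher, 1 of them not above background on any control array, with sums of 14.48 to 14.59 and 15.15 to 15.35, led by *Acta2* (0.54), *Actg2* (0.50) and *Tagln* (5.08), and *Des* and *Lmod1* were below background throughout. At any fold 4 of the 7 were higher and 1 was lower at a limma adjusted p under 0.05, the last *Smtn* (-0.76), named after its values were seen. A dimmer probe of *Acta2* above background on all 6 arrays differed by 3.64. Of 7 erythroid markers 3 were tested and none was called, with sums of 8.88 on the control arrays and 8.32 to 8.91 on the cKO arrays. At any fold 2 of them had a limma adjusted p under 0.05 and read lower; the 3 were *Hbb-bt* (-0.15), *Epor* (-0.54) and *Ank1* (-0.41).

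**Figure D4:**
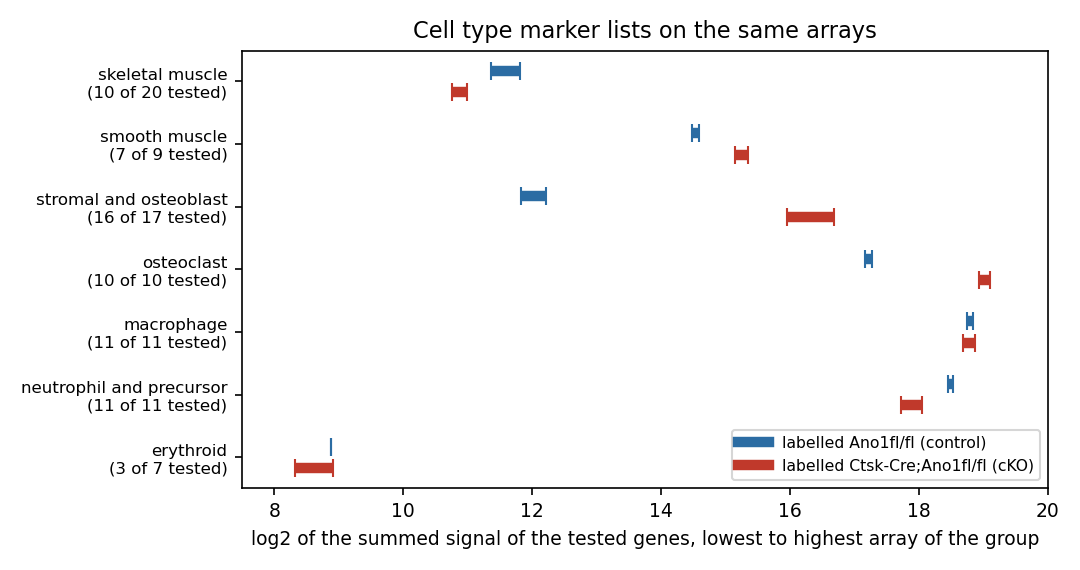
Log2 of the summed signal of the tested genes in each marker list, drawn from the lowest to the highest of the 3 control arrays (blue) and of the 3 cKO arrays (red). The stromal and osteoblast list moved from 11.82 to 12.22 up to 15.96 to 16.69, the osteoclast list from 17.16 to 17.28 up to 18.93 to 19.10, and the macrophage ranges overlap.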

How the data were processed

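RNA of osteoclasts from 3 mice per group was measured on 6 Agilent arrays. The deposited values are intensities on a linear scale, as read by Agilent Feature Extraction 10.7.1.1 per the file headers, and the authors' processed signal has background subtracted but is not normalized between arrays. The series matrix holds the spot medians (62973 values, largest difference 0). Here, control and outlier spots were left out, 14 probes with missing values were dropped, and log2 signals were quantile normalized, the algorithm the study's methods name, in limma 3.58.1 and R 4.3.3. Spots of a probe were averaged, and a gene was represented by its brightest probe. A gene was tested where either group had the scanner's mark above background on at least 0.5 of its spots, on each of its 3 arrays. The limma fit used all 6 arrays with Benjamini-Hochberg adjustment. The code was tested on simulated data. Where a group was below background, folds are lower limits, computed with each of its arrays set to its dimmest signal above background.

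Named were the 6 members, *Slc6a8*, the 3 largest called rises and falls per pathway list, the 3 brightest genes per marker list, and the 3 genes most like each member, given for genes above background on all 6 arrays, a restriction added after the values were seen. The values of 2 genes of the pathway lists are not reported here, though they enter the counts. Members and lists were chosen with earlier results of these data known. Sequences come from the array files and RefSeq (GRCm38.p6), and plots and searches were made with Python 3.11.15 and matplotlib 3.10.9. The number of arrays limits the precision. Alternatives were 75th percentile scaling, normexp with an offset of 50, the series matrix, other filters, folds, probe rules and tests, a replicate block, and leaving out each array.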

Additional observations from a re-analysis of the deposited data

How the results depend on the processing

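*Ckm* and *Ckmt2* were below background throughout and were given no value under any alternative. The differences of the other members kept their sign in every alternative run. With a gene's probes averaged, *Ckb* differed by 3.37, *Ckmt1* by 4.11 and *Gatm* by -1.06, since the dimmer probe then counts equally; the value of *Ckmt1* then includes a probe below background on the control arrays and is no measured size. Leaving out each array in turn gave 3.05 to 3.22 for *Ckb*, 1.23 to 1.497 for *Ckmt1*, -0.85 to -0.77 for *Gamt* and -1.35 to -1.21 for *Gatm*. Over all genes, 2039 higher and 1485 lower calls became 1315 and 666 with normexp. There were 827 lower calls with the series matrix, 1306 higher ones where all 6 arrays had to be above background, 3293 lower ones at 1.5-fold, 4839 and 5987 at any fold, and 2584 lower ones over probes. Of the pathway genes, 12 rose and 2 fell as reported. Lower calls numbered 1 with normexp, the series matrix, the 6-array filter and the mean of all probes, and 5 at 1.5-fold. At any fold they numbered 29 higher and 5 lower, and over probes 19 were higher. *Amt* lost its call with normexp (-0.34), the series matrix (-0.53) and the mean of all probes (-0.95), and *Ak5* with normexp (0.50) and the series matrix (0.93). Leaving out each array gave 1999 to 2058 higher and 1427 to 1503 lower genes, and 2 to 3 lower pathway genes. The causes of these shifts were not tested. A fit with the replicate number as a block (replicate block) called 2028 higher and 1467 lower genes and the same 12 and 2 pathway counts. The labels do not say that a number marks a pair. Deviations of same-numbered arrays correlated at 0.004, -0.06 and -0.08, and those of differently numbered arrays at -0.12 to 0.18. With 3 arrays per group these values cannot decide whether mice were paired, and the study calls the controls littermates. P-values set the difference between the group means against the spread within groups of 3 mice. That spread includes differences between cultures and arrays as well as between mice. Dim probes, such as those of *Slc7a2*, *Ak5*, *Ak7* and *Amt*, limit the folds to bounds, which hold for the processed signal and not for the other background treatments. With all 6 arrays above background 9 pathway genes were called higher.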
